A study of Mus musculus with 6 samples.

Results

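SURF4 is a cargo receptor of the early secretory pathway, and its mRNA was measured beside that of 9 other genes that encode cargo or retrieval receptors between the endoplasmic reticulum (ER) and the Golgi. The 10 genes were taken by name, as Surf4, Lman1, Mcfd2, Lman2, Lman2l, Ergic1, Ergic2, Ergic3, Kdelr1 and Kdelr2, out of 35540 gene symbols with a value in liver RNA sequencing. All 10 averaged 0.1 TPM or more and were among the 14189 genes tested. TPM is a level corrected for transcript length and scaled so that each mouse has the same total, and levels may be set beside each other between genes. The question was whether any other receptor mRNA was higher in livers in which hepatocytes had lost Surf4.

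The COPII coat assembles on the outer face of the ER membrane, while soluble cargoes lie inside and cannot touch it themselves. A cargo receptor spans the membrane, binding the cargo on the inside and the coat on the outside, and then returns to the ER in COPI-coated vesicles. The liver secretes most plasma proteins and lipoproteins, and SURF4 is known there for carrying apolipoprotein B.

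Livers of 6 mice on a C57BL/6J background were compared, 1 library each: 3 of the genotype Surf4 fl/fl Alb-Cre+, and 3 littermate controls, Surf4 fl/fl Alb-Cre-. Which mice shared a litter is not given. Every animal was homozygous for an allele with loxP sites on either side of Surf4 exon 2, the controls included. Cre was driven by the Albumin promoter, which is active in hepatocytes. The study took the Surf4 mRNA that still held exon 2 as likely coming from other cell types of the liver. Per genotype there were 2 males, replicates 1 and 3, and 1 female, replicate 2. The age of these mice is not given in the labels. Mice were fasted overnight before liver was taken. In whole liver, fewer cells of a type and less RNA per cell cannot be told apart.

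The exon removed by Cre and the exon that follows it are shown because they define what the Surf4 values can and cannot report. Both were read from the GENCODE M21 transcript on GRCm38, and both lie on the minus strand, exon 2 at chr2:26926769-26926955 and exon 3 at chr2:26925608-26925684. In exon 2 the capitals mark the site of the forward primer used in the study's quantitative PCR. In exon 3 they mark the first stop codon met when exon 1 is joined directly to exon 3.
Surf4 exon 2: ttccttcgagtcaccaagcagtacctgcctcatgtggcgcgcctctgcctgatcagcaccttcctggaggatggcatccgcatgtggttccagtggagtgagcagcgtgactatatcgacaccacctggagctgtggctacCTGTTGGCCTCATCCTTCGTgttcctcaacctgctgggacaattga
Surf4 exon 3: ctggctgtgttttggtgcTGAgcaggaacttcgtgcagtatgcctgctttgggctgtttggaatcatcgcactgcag

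Exon 2 has 187 bases, 5.70% of the 3281 bases of the 6-exon Surf4 mRNA. All 3 annotated Surf4 transcripts contain it, so an mRNA without exon 2 has no transcript of its own in the table and its remaining exons are counted as Surf4. A Surf4 level in TPM is therefore that of the mRNA with and without exon 2 together. It is not a measure of how much exon 2 was removed.

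Surf4 mRNA was lower in every Alb-Cre+ liver than in every control. Its level was 92.5, 94.5 and 92.5 TPM in Alb-Cre- replicates 1, 2 and 3, and 59.0, 71.8 and 54.3 TPM in the Alb-Cre+ mice of the same numbers. The controls lay within a few TPM of each other, and the highest Alb-Cre+ value, that of the female, remained under the lowest control. The mean was 93.2 ± 1.17 TPM (SD, n = 3) against 61.7 ± 9.07 TPM (SD, n = 3), a log2 difference of -0.60 (SE 0.13) and a ratio of 0.658 with a 95% interval from 0.529 to 0.819. The limma test across all genes gave an unadjusted p of 0.00269, the 22nd smallest of 14189, and a Benjamini-Hochberg adjusted p of 1.00, above the threshold of 0.01. A two-sided exact permutation test gave p = 0.1, the smallest value that 3 mice against 3 allow.

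Same-numbered mice deviated together, and within these pairs the log2 difference of Surf4 was -0.65 in pair 1, -0.40 in the female pair 2 and -0.77 in pair 3. The make-up of the libraries also differed between mice. Genes of the major urinary proteins (Mup), abundant secreted proteins of the mouse liver, took 17.5% of the TPM in Alb-Cre+ replicate 3, between 7.27% and 7.97% in the other 3 males, and 1.35% and 1.38% in the females. What this share contributed to the Surf4 values was not tested. When the TPM were scaled by median of ratios, which sets the typical gene equal between mice, Surf4 was at 92.5, 87.1 and 98.7 in controls and 59.9, 59.1 and 63.7 in Alb-Cre+ livers. The SD in Alb-Cre+ livers was 9.07 in deposited TPM and 2.47 after scaling. In controls it went the other way, from 1.17 to 5.82 after scaling. On this scale the 3 pairs differed by -0.63, -0.56 and -0.63 (log2), the mean difference was again -0.60, and the limma adjusted p was 0.981. Over all genes the median log2 difference between genotypes was -0.0017 before scaling and -0.0044 after, and the scaling holds the latter near 0 by construction. Single mice moved more, as the factor each was divided by ran from 0.852 in Alb-Cre+ replicate 3 to 1.22 in Alb-Cre+ replicate 2.

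Almost all Surf4 signal came from 1 transcript. ENSMUST00000015011 held 98.0% to 98.8% of Surf4 TPM in controls and 99.7% to 100% in Alb-Cre+ livers. The protein-coding transcript ENSMUST00000154651 was listed at 0.927, 0 and 1.75 TPM in controls and at 0, 0.129 and 0 TPM in Alb-Cre+ livers. The nonsense-mediated decay transcript ENSMUST00000153641 was listed at 0.666, 1.17 and 0.118 TPM in controls and at 0, 0.0581 and 0 TPM in Alb-Cre+ livers. These transcripts were looked at after their values were seen, and their low levels were not tested. With the main transcript alone, the log2 difference of the gene was -0.58.

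**Figure D1:**
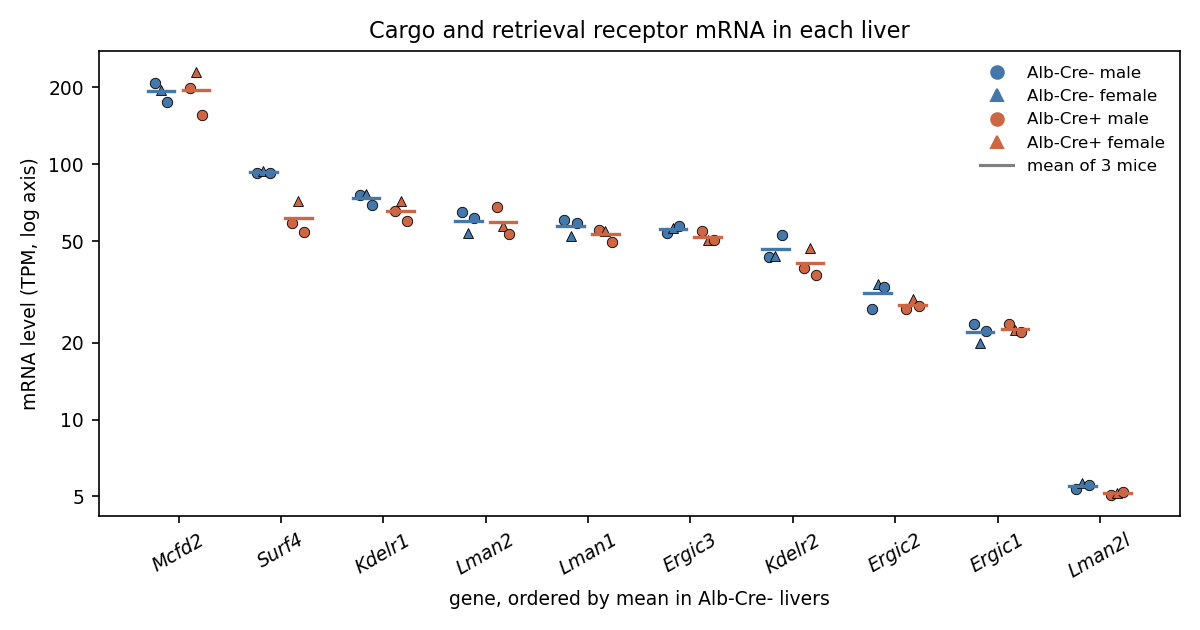
Each symbol is the level of 1 gene in 1 liver, in TPM on a log axis, for Alb-Cre- (blue) and Alb-Cre+ (orange) mice, with circles for males, triangles for females and a bar at the mean of 3 mice. Genes are ordered by their mean in controls, from Mcfd2 at 193 TPM to Lman2l at 5.51 TPM. Surf4 is the gene whose groups stand clearly apart.

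None of the other 9 receptor genes passed the test in either direction. Across all genes the limma adjusted p was under 0.01 for 0 of 14189 genes (0%), and the smallest adjusted p was 0.456. The study's own DESeq2 comparison did report genes up and down at a false discovery rate under 0.01. At an unadjusted limma p under 0.05, 114 genes (0.803%) were higher and 136 (0.958%) were lower in Alb-Cre+ livers, and none of the 9 was among them. The log2 difference was below 0 for 8 of the 9, against 50.4% of all genes tested, and above 0 only for Ergic1. Values did not overlap between genotypes for 1 of the 9, Lman2l, which was lower. Among all genes 2.71% did not overlap and were lower, and 2.18% did not overlap and were higher.

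The lectin-type receptors bind sugars or their partners on glycoproteins in transit. Lman1, which encodes the sugar-binding subunit of the receptor for coagulation factors V and VIII, was at 60.3, 52.5 and 58.8 TPM in controls and 55.1, 54.9 and 49.4 TPM in Alb-Cre+ livers. The genotypes overlapped, and the log2 difference was -0.11 (SE 0.12). Mcfd2, its soluble calcium-binding partner, was at 209, 196 and 175 TPM in controls and 200, 230 and 156 TPM in Alb-Cre+ livers. Both the highest and the lowest Mcfd2 values were those of Alb-Cre+ mice, and the log2 difference was -0.00056 (SE 0.17). The ratio of Mcfd2 to Lman1 was 3.46, 3.73 and 2.98 in controls and 3.62, 4.19 and 3.16 in Alb-Cre+ livers, so the groups overlapped in this ratio too.

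Lman2, which encodes the cycling lectin VIP36, was at 65.1, 54.0 and 61.3 TPM in controls and 68.2, 57.2 and 53.2 TPM in Alb-Cre+ livers. The Alb-Cre+ mice held both the highest and the lowest value, and the log2 difference was -0.02 (SE 0.14). Lman2l, whose product resembles VIP36 and resides in the ER, was the least abundant receptor. It was at 5.35, 5.63 and 5.55 TPM in controls and 5.07, 5.17 and 5.18 TPM in Alb-Cre+ livers. The 2 groups did not overlap, by a gap smaller than the range within controls, and the limma adjusted p was 1.00 with a log2 difference of -0.10 (SE 0.16). After median-of-ratios scaling the Lman2l values overlapped, at 5.35, 5.19 and 5.92 against 5.15, 4.25 and 6.08.

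The Ergic genes encode the mammalian relatives of the yeast Erv41-Erv46 complex, which cycles between ER and Golgi and, in yeast, returns ER proteins that lack a retrieval signal. Ergic1 was at 23.7, 20.003 and 22.2 TPM in controls and 23.8, 22.4 and 22.0 TPM in Alb-Cre+ livers, with a log2 difference of 0.05 (SE 0.13). With its main transcript alone, Ergic1 was higher without overlap, at a log2 difference of 0.18 (SE 0.12). Ergic2, the Erv41 relative, was at 27.1, 33.9 and 33.0 TPM in controls and 27.1, 29.8 and 27.7 TPM in Alb-Cre+ livers. Its lowest control lay among the Alb-Cre+ values, and the log2 difference was -0.15 (SE 0.13). Ergic3, the Erv46 relative, was at 53.9, 56.1 and 57.1 TPM in controls and 54.5, 50.5 and 50.5 TPM in Alb-Cre+ livers, a log2 difference of -0.10 (SE 0.11). The ratio of Ergic3 to Ergic2 was 1.79 ± 0.173 in controls and 1.84 ± 0.160 in Alb-Cre+ livers (SD, n = 3).

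The KDEL receptors catch ER-resident chaperones that have escaped to the Golgi and send them back. Kdelr1 was at 75.9, 76.7 and 69.2 TPM in controls and 65.5, 71.8 and 59.8 TPM in Alb-Cre+ livers. The female Alb-Cre+ value lay above the lowest control, and the log2 difference was -0.17 (SE 0.12, limma adjusted p = 1.00). Kdelr2 was at 43.1, 43.5 and 52.7 TPM in controls and 39.1, 47.1 and 36.9 TPM in Alb-Cre+ livers, with a log2 difference of -0.18 (SE 0.15). Kdelr1 was lower in Alb-Cre+ livers in each of the 3 pairs, by -0.21, -0.09 and -0.21 (log2), as were Lman2l and Ergic2 among the other 9, and none of the 9 was higher in each pair. For Ergic2 the mice of pair 1 were all but equal, at a difference of -0.0041. Among all genes 12.4% were lower in every pair and 11.5% were higher. After median-of-ratios scaling the 3 lower in every pair were Lman1, Kdelr1 and Kdelr2 and Ergic1 was higher in every pair, against 14.2% and 12.8% of all genes. The scaled Ergic1 differences were 0.024, 7.2e-05 and 0.12 (log2) in pairs 1, 2 and 3, so the mice of pair 2 were all but equal. The summed level of both KDEL receptors was 119.06, 120 and 122 TPM in controls and 105, 118.9 and 96.7 TPM in Alb-Cre+ livers. The highest Alb-Cre+ sum, that of the female, lay just under the lowest control. After median-of-ratios scaling the sums overlapped, at 119, 111 and 130 in controls and 106, 97.8 and 113 in Alb-Cre+ livers.

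Scaling by median of ratios changed which receptor did not overlap, but not their number. Kdelr1 was then at 76.0, 70.7 and 73.9 in controls and 66.5, 59.1 and 70.2 in Alb-Cre+ livers, and was the 1 of 9 without overlap, again lower. Among all genes, 2.89% did not overlap and were lower on this scale and 2.78% did not overlap and were higher. Of the 9 log2 differences, 8 were below 0 on this scale as well.

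**Figure D2:**
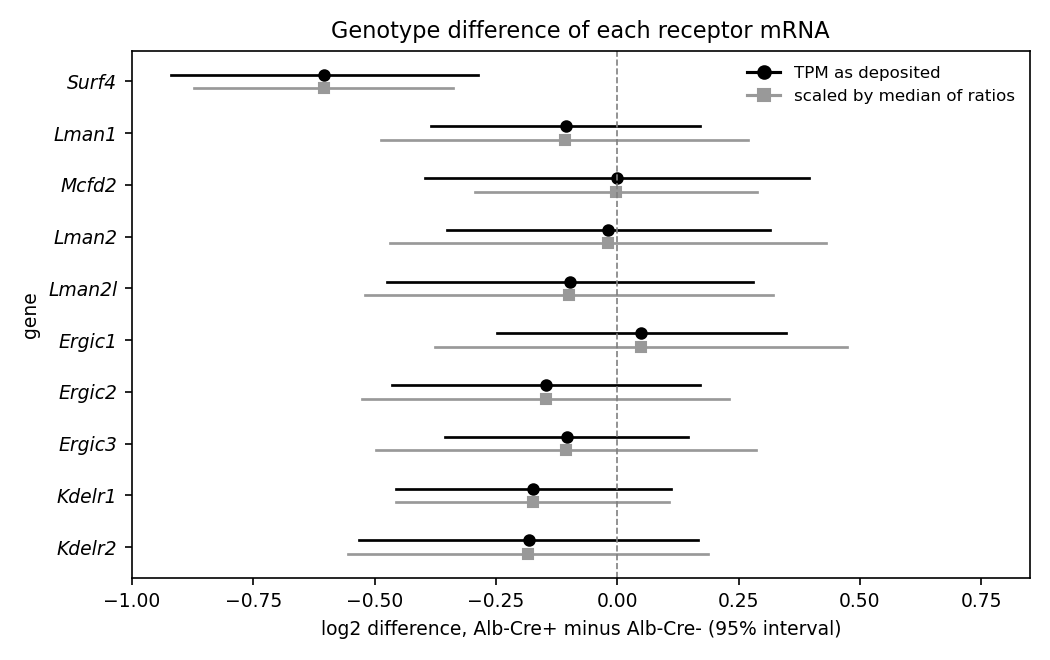
Points are log2 differences of Alb-Cre+ minus Alb-Cre- livers (3 mice each) with 95% intervals from limma, for TPM as deposited (black) and after median-of-ratios scaling (grey). The interval of Surf4 lies below 0 on both scales, from -0.92 to -0.29 in deposited TPM, and each interval of the other 9 genes includes 0.

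The intervals give the largest increase that was not excluded for each gene. Upper limits of the 95% interval of the ratio of Alb-Cre+ to control ranged from 1.08 for Kdelr1 to 1.31 for Mcfd2 in deposited TPM, and from 1.08 for Kdelr1 to 1.39 for Ergic1 after median-of-ratios scaling. For Lman1, the upper limit was 1.13 in deposited TPM and 1.21 after scaling. These limits depend on the estimate as well as on its error, and they are not the smallest increase that 3 mice per genotype could detect. The summed level of the other 9 genes was 563, 538 and 535 TPM in controls and 538, 569 and 461 TPM in Alb-Cre+ livers. The lowest sum belonged to Alb-Cre+ replicate 3, and after median-of-ratios scaling to Alb-Cre+ replicate 2, at 468 against 546 and 540 in the other Alb-Cre+ mice and 496 to 571 in controls. Of the summed level of all 10 genes, Surf4 made up 14.1%, 14.9% and 14.7% in controls and 9.89%, 11.2% and 10.5% in Alb-Cre+ livers.

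The order of the levels was the same in both genotypes except for Surf4. In controls, Mcfd2 was the most abundant, followed by Surf4, Kdelr1, Lman2, Lman1, Ergic3, Kdelr2, Ergic2, Ergic1 and Lman2l. Neighbours in this order had separate ranges over the 3 mice apart from Lman2 with Lman1 and Lman1 with Ergic3. In Alb-Cre+ livers Surf4 stood at rank 3 in place of rank 2, behind Kdelr1, and its range overlapped those of both Kdelr1 and Lman2. There the ranges of Lman2 and Lman1 and of Lman1 and Ergic3 overlapped again.

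**Figure D3:**
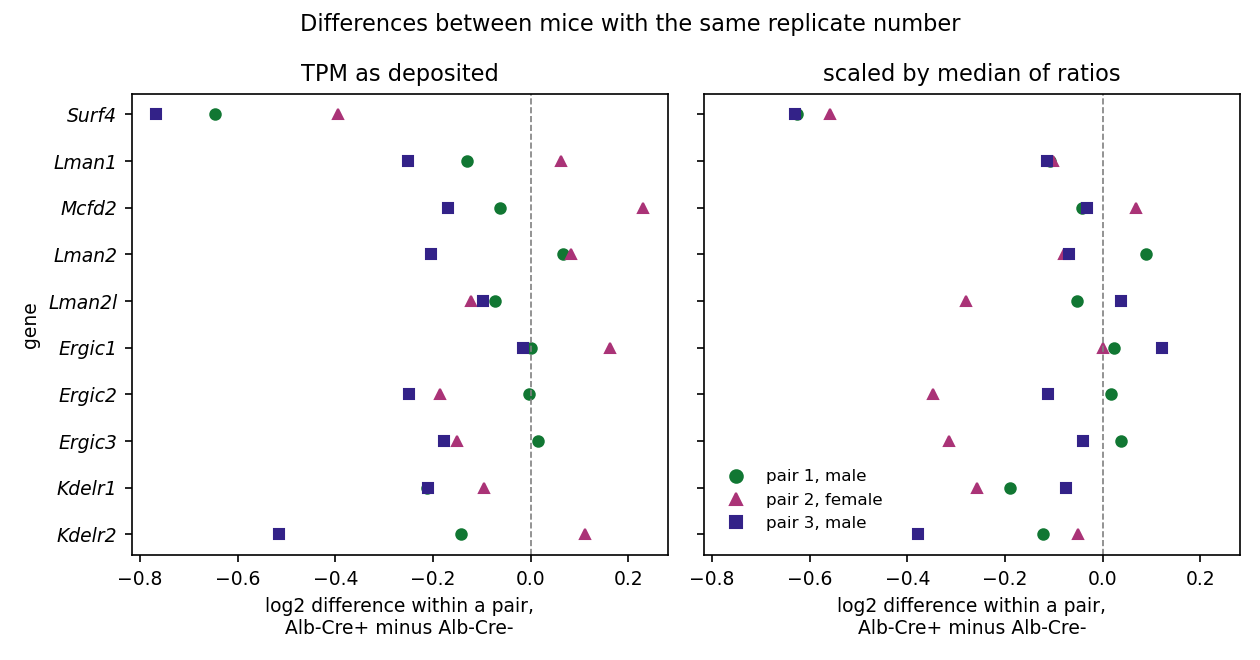
Each symbol is the log2 difference between the Alb-Cre+ and the Alb-Cre- mouse of 1 replicate number, left for deposited TPM and right after median-of-ratios scaling. The 3 Surf4 differences draw together on the right, between -0.63 and -0.56, and no other gene there reaches that size in any pair. On the left, Kdelr2 differs by -0.52 in pair 3, which is more than Surf4 in pair 2, at -0.40.

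The 10 genes differed in how firmly their reads could be assigned. Kdelr2 had a single transcript, while Ergic2 had 17 and Ergic1 had 14. The main transcript held 97.1% to 98.8% of Ergic3 and 97.3% to 99.0% of Lman2 over the 6 mice. Ergic2 was spread over 3 main transcripts, of which ENSMUST00000032446 is annotated as subject to nonsense-mediated decay and held 22.3% to 27.0%. In Ergic1, transcript ENSMUST00000235915 was listed at 17.0%, 0% and 17.5% of the gene in controls and at 5.30%, 0% and 6.001% in Alb-Cre+ livers, both females being at 0. That transcript was picked after its values were seen and is given as a description.

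Exons of Surf4 overlap those of its neighbour Surf2 on the opposite strand over 144 bases, 4.39% of the exonic bases of Surf4. Whether counting used the strand is not given in the sources used here, so reads from that stretch could belong to either gene. The overlap was largest for Ergic2, 14.3% of whose exonic bases lie in exons of Far2 or 4732416N19Rik, and its level is uncertain to that extent. Lman2l overlaps Fer1l5 over 1.40% of its exonic bases, and 7.55% of its 31-base stretches also occur in other genes, among them Gm45048, Gm43766 and Snhg11. For Lman2 that share was 2.24%. Lman1, Mcfd2, Lman2, Ergic3, Kdelr1 and Kdelr2 overlap no exon of another gene.

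In GRCm38 with GENCODE M21, Surf4 lies at chr2:26920040-26933928 on the minus strand, and Ergic3 on the same chromosome at chr2:156008045-156018279 on the plus strand. Mcfd2 is at chr17:87254443-87265935 and Ergic1 at chr17:26561489-26656934. Kdelr1 is at chr7:45872772-45883732 and Kdelr2 at chr5:143403838-143421901. Lman2 is at chr13:55343833-55362783, Lman2l at chr1:36419871-36445271 and Ergic2 at chr6:148179079-148212374. The nearest gene to Surf4, Surf2, was at 15.5, 13.4 and 13.6 TPM in controls and 16.04, 13.8 and 12.8 TPM in Alb-Cre+ livers, a log2 difference of -0.0031. Stkld1, next to it, was at or below 0.0958 TPM in every mouse and was not tested.

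Some receptor and chaperone genes are induced when unfolded proteins gather in the ER, through short elements near their start sites. RefSeq promoters, from 250 bases before to 50 after the start, were matched for 8 of the 10 genes, and not for Lman1 and Kdelr2. Both strands were searched for the ER stress response element (CCAAT and CCACG with any 9 bases between them), its second form (ATTGG and CCACG with any 1 base between them) and the XBP1 and ATF6 core TGACGTGG. The first and second forms share the letters CCACG. None of these letter strings occurred in the 8 windows, while 0.119%, 0.0365% and 0.676% of all 32851 promoters held them. This says only that these letters are not in these windows.

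Other ER export receptors and adaptors include the p24 (Tmed) proteins, the cornichons and the TANGO1 relatives that export large cargo. Of 23 genes fixed for this group, 18 were tested, 0 passed the adjusted threshold, and the median log2 difference was -0.07 against -0.0017 for all genes. Tmed4, a p24 protein, was at 66.7, 75.5 and 55.3 TPM in controls and 46.5, 51.3 and 42.8 TPM in Alb-Cre+ livers. All 3 Alb-Cre+ values of Tmed4 were below the controls, with a log2 difference of -0.48 (SE 0.15), an unadjusted limma p of 0.0152 and an adjusted p of 1.00. Tmed9 had the highest log2 difference of the group, 0.17 (SE 0.12), with overlapping genotypes. Named after their values were seen, Mia2, Tex261 and Yif1a were also without overlap and lower, at log2 differences of -0.19, -0.15 and -0.25. With Tmed4 that made 4 of the 18 tested genes, against 2.71% of all genes tested.

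The coats that carry the receptors out and back showed no gene past the adjusted threshold. Of the 15 COPII and ER exit site genes, 8 had a log2 difference above 0 and 7 below, with a median of 0.0055, from Sec16b, a scaffold of ER exit sites, at -0.39 (SE 0.19) to Sec24b, a cargo-binding coat subunit, at 0.26 (SE 0.24). Sec16b did not overlap and was lower, and Sec31b, named after its values were seen, did not overlap and was higher at under 1 TPM. Among all genes 2.71% did not overlap and were lower, and 2.18% did not overlap and were higher. Of the 14 COPI genes, 4 were above 0 and 10 below, with a median of -0.05, from Copb1 at -0.28 (SE 0.17) to Arfgap3 at 0.29 (SE 0.34).

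Genes of proteins that SURF4 has been reported to carry were counted for their mRNA only. Of 9 genes, 7 were tested, 0 passed the adjusted threshold, and the median log2 difference was -0.0031. Apoa1, the main protein of high density lipoprotein, was at 17603, 20844 and 15764 TPM in controls and 10222, 9779 and 8802 TPM in Alb-Cre+ livers. The groups did not overlap, with a log2 difference of -0.91 (SE 0.24), an unadjusted limma p of 0.00651 and an adjusted p of 1.00. Nucb1, named after its values were seen, did not overlap and was higher by 0.18 (log2). These were 1 lower and 1 higher of 7 tested genes, against 2.71% and 2.18% of all genes.

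Genes of reported LMAN1-MCFD2 cargo, among them coagulation factors V and VIII, gave a median log2 difference of -0.12 over 11 genes, with 0 past the adjusted threshold and no gene without overlap. The lowest difference, -0.80 (SE 2.18), was that of Serpina1e, a protease inhibitor whose level ran from 73.8 TPM in a female to 12428 TPM in a male. The highest among genes averaging 1 TPM or more was 0.14 (SE 0.29), for Lgals3bp.

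Of the 23 genes for ER residents that KDEL receptors retrieve, 0 passed the adjusted threshold. The log2 difference was above 0 for 15 of them and below 0 for 8, against 49.6% of all genes above 0, and the median was 0.10. Sdf2l1, a partner of the chaperone BiP, was at 20.6, 12.4 and 24.3 TPM in controls and 35.5, 39.1 and 26.6 TPM in Alb-Cre+ livers. The groups did not overlap, with a log2 difference of 0.85 (SE 0.28), an unadjusted limma p of 0.0172 and an adjusted p of 1.00. Hsp90b1, the ER form of HSP90, was at 288, 251 and 277 TPM in controls and 353, 423 and 302 TPM in Alb-Cre+ livers, also without overlap, with a log2 difference of 0.39 (SE 0.15), an unadjusted limma p of 0.0393 and an adjusted p of 1.00. Pdia6, named after its values were seen, was the other gene without overlap, with a log2 difference of 0.44. That made 3 of the 23 genes higher without overlap, against 2.18% of all genes tested. Fkbp14 had the lowest difference among genes averaging 1 TPM or more, -0.11 (SE 0.50). The KDEL receptors themselves were at -0.17 and -0.18.

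Within the Surfeit locus and its neighbours, 9 of 10 genes were tested, with a median log2 difference of -0.02, 0 past the adjusted threshold and no gene without overlap. Differences ran from -0.25 (SE 0.32) for Med22 to 0.05 (SE 0.22) for Rexo4 among genes averaging 1 TPM or more. Over the 7 lists, 97 of 105 genes were tested, and 4 had an unadjusted p under 0.05, Tmed4 and Apoa1 lower and Hsp90b1 and Sdf2l1 higher. Among all genes 0.958% were lower and 0.803% were higher at that level. With the replicate number as a block, 11 of the 97 did, against 2.28% of all genes that were higher and 2.42% that were lower at that level. The 7 that joined were Grn, Hspa5, Pdia6 and Mmp9, higher, and Copb1, Sec16b and Serpina1e, lower. With the block the smallest limma adjusted p of any gene was 0.0580, so no gene passed 0.01, and Surf4 had an adjusted p of 0.472.

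**Figure D4:**
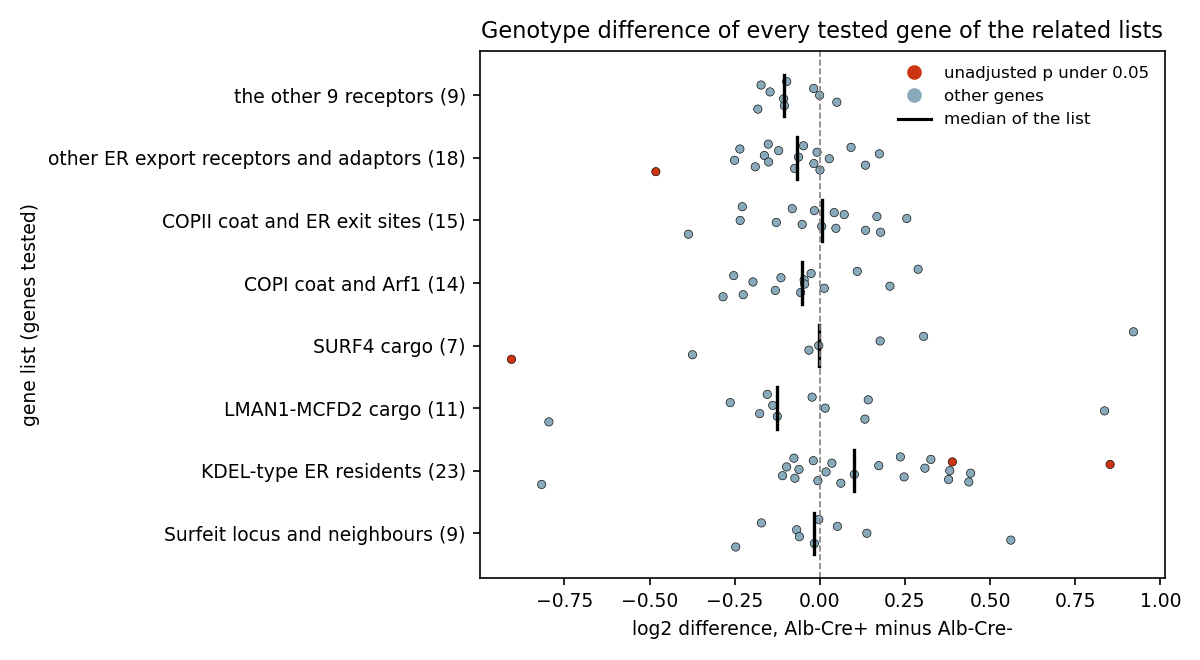
Each point is the log2 difference (Alb-Cre+ minus Alb-Cre-) of 1 tested gene, by list, with a black line at the median of the list and red points for an unadjusted limma p under 0.05. The 9 other receptors lie between -0.18 and 0.05, and the widest spreads are in the 2 cargo lists and the KDEL-type residents.

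The genes whose profile over the 6 mice was most like that of Surf4 were found by the root mean square difference of log2(TPM + 0.1), each gene centred on its mean, among 5148 other genes averaging 10 TPM or more. The closest 5 were Agxt, Cldn12, Tmem41a, Rfc2 and Slc35e1, at 0.089 to 0.132. Agxt, a peroxisomal enzyme of glyoxylate metabolism in the liver, was at 326, 311 and 349 TPM in controls and 194, 250 and 169 TPM in Alb-Cre+ livers. Like Surf4, each of these 5 was lower without overlap, and since they were picked for that profile their values are a description. Of the other receptors, the closest were Kdelr1, ranked 170, and Kdelr2, ranked 226.

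Markers of other liver cell types and of hepatocytes were read in the same way. Of 47 markers, 46 were tested, with 0 past the adjusted threshold, and Tf was not analysed here. By the filter of 0.1 TPM on the mean, no tested marker could be at 0 in every mouse. The summed level of hepatocyte markers was 84271 to 91809 TPM in controls and 70015 to 92290 TPM in Alb-Cre+ livers, with log2 differences from -0.37 (Ttr, without overlap) to 0.19 (Cps1). Ttr was the 1 of 46 tested markers without overlap, while 2.71% of all genes did not overlap and were lower. Kupffer cell markers summed to 171 to 459 TPM in controls and 126 to 498 TPM in Alb-Cre+ livers, from -0.27 (Cd5l) to 0.64 (Marco). Sinusoidal endothelium markers summed to 109 to 171 and 79.4 to 204 TPM, from -0.50 (Lyve1) to 0.16 (Stab1), and stellate cell markers to 130 to 359 and 178 to 338 TPM, from -0.36 to 0.67, the latter in Reln. Among stellate genes averaging 1 TPM or more, Des was lowest at -0.05.

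Cholangiocyte markers summed to 15.0 to 59.2 TPM in controls and 23.3 to 39.2 TPM in Alb-Cre+ livers, with log2 differences from -0.63 to 0.02. Only among those averaging 1 TPM or more were the ends Epcam (-0.17) and Sox9 (0.02). Blood markers summed to 103 to 408 and 131 to 308 TPM, from -0.32 (Hba-a2) to 0.15 (Alas2). B and plasma cell markers summed to 2.99 to 9.13 and 2.90 to 8.78 TPM, from -0.34 to -0.0012, with Jchain at -0.16 and Ighm at -0.02 the ends among those averaging 1 TPM or more. T and NK cell markers summed to 1.49 to 4.39 and 1.84 to 3.16 TPM. The summed ranges of the genotypes overlapped for each of the 8 cell types. What non-hepatocyte cells contributed to the Surf4 level left in Alb-Cre+ livers was not tested.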

How the data were processed

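RNA sequencing of whole liver from 6 mice was analysed. The authors deposited TPM per transcript and mouse, each mouse summing to 1000000. Their methods describe alignment with STAR and quantification with RSEM, and the processing notes also list Salmon and GRCm38. A second deposited table, with the authors' own DESeq2 comparison (mean counts, fold changes, p-values), was not used. From that comparison the study reported limited changes, with genes up and down at a false discovery rate under 0.01. The limma test on TPM is a different test, so its lack of calls does not mean that no gene differed. Read numbers cannot be had from TPM: the depth of each library is unknown, no counting error is given, and the number of mice limits the precision.

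TPM were summed per gene symbol, leaving out 163 transcripts without a symbol (0.0515% to 0.0887% of TPM). The genes averaging 0.1 TPM or more were then tested in limma 3.58.1 (R 4.3.3) on the log2(TPM + 0.1) scale, with a variance trend and genotype as the only factor. On this scale a log2 difference understates the change of low genes. Benjamini-Hochberg adjustment ran over all genes tested, and the threshold was the study's 0.01. The procedure was tested on simulated data in which mice varied independently, without pairs or sex. How it behaves with same-numbered mice that deviate together was not tested. Exact permutation tests used scipy 1.17.1. Each mouse is a separate animal.

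Deviations from the genotype mean correlated between same-numbered mice (Pearson r over genes of 0.367, 0.588 and 0.370), so the numbers, taken from the labels, were treated as pairs in a blocked fit. Pairs 1 and 3 are male and pair 2 is female, so a block also carries sex.

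The members and the gene lists were chosen with earlier results of these data known. Named are all 10 members, list genes with an unadjusted p under 0.05, the highest and lowest difference per list among genes averaging 1 TPM or more, the 5 genes most like Surf4, and the 2 nearest Surfeit genes. A gene that meets these criteria is not reported here. The alternatives took the replicate number as a block, sex as a covariate, a pseudocount of 1 TPM, no filter, a minimum mean of 1 TPM, median of ratios, no variance trend, the main transcript alone and leaving out each mouse. Median of ratios together with the block was added after seeing the data. Shared sequence was checked with exons of GENCODE M21.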

Additional observations from a re-analysis of the deposited data

Results flagged for a closer look

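For 8 named genes the female pair moved one way and both male pairs the other. With 1 female per genotype, the limma interaction assumes that a lone female varies like the males, and its adjusted p ranged from 0.775 to 0.965 for these 8 genes. The pattern was seen in 32.9% of the 14189 genes tested, and no gene passed an adjusted p of 0.01, while 862 had an unadjusted interaction p under 0.05. The female pair exceeded the mean of the male pairs (log2) by 0.25 for Lman1 (0.06 in females, -0.13 and -0.25 in males), by 0.35 for Mcfd2 (0.23, -0.06 and -0.17) and by 0.44 for Kdelr2 (0.11, -0.14 and -0.52). It did so by 1.06 for Arfgap3, 0.78 for Med22, 1.34 for Lyve1, 0.56 for Sox9 and 0.34 for Jchain. After median-of-ratios scaling the pattern was seen in 1 of the 10 receptor genes, Mcfd2. The share over all genes is not given on that scale, so this number has no background beside it.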

How the results depend on the processing

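Surf4 was lower under each alternative run, with an unadjusted p under 0.05 and an adjusted p above 0.01 throughout, and log2 differences from -0.72 to -0.52 when 1 mouse was left out. The paired fit, with the replicate number as a block, left its log2 difference at -0.60, and changed no call. None of the other 9 receptors was called under any alternative. The number without overlap was 1, against 2 for the main transcript alone and 1 to 3 when a mouse was left out. With a mouse fewer in a group, any gene fails to overlap more readily. The share over all genes is not given for these settings, so the higher numbers are not a result about the receptors. The number of list genes with an unadjusted limma p under 0.05 was 4 in the main fit and 11 with the replicate block. Over all 14189 genes tested, that number also rose, from 250 to 666. The list count was 10 with sex as a covariate, 7 with median of ratios and 13 with median of ratios and the block together. It was 3 to 8 when a mouse was left out. For these other settings the share over all genes is not given, so their list counts have no background beside them.

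Rexo4 changed direction with its main transcript alone, at -0.89. When 1 mouse was left out, the log2 difference crossed 0 for Mcfd2 (-0.13 to 0.15), Lman2 (-0.12 to 0.059), Ergic1 (-0.016 to 0.11), Surf2 (-0.094 to 0.069), Arfgap3 (-0.081 to 0.49), Serpina1e (-2.77 to 1.295), Lgals3bp (-0.12 to 0.37), Fkbp14 (-0.48 to 0.37) and Rexo4 (-0.13 to 0.27). Among markers it did so for Cd5l (-0.91 to 0.26), Stab1 (-0.14 to 0.44), Des (-0.39 to 0.18), Reln (-0.17 to 1.25), Epcam (-0.61 to 0.14), Sox9 (-0.13 to 0.26), Jchain (-0.76 to 0.56), Ighm (-0.49 to 0.39), Hba-a2 (-0.86 to 0.039) and Alas2 (-0.75 to 0.95). Without crossing 0, Marco ran from 0.12 (without Alb-Cre+ replicate 2) to 1.15, Sec24b from 0.028 (without Alb-Cre+ replicate 2) to 0.43 and Lyve1 from -1.12 (without Alb-Cre+ replicate 2) to -0.15. The fits that left out a mouse had no term for sex, so leaving out a female left only males in her group. Serpina1e was at -2.77 without Alb-Cre- replicate 2 and at 1.295 without Alb-Cre+ replicate 2, the females. Within pairs 1, 2 and 3 its log2 differences were -0.61, -1.04 and -0.74. What caused the changes listed here was not tested.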
